A study of Homo sapiens with 12 samples.

Results

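The genes described here are the antisense long noncoding RNA (lncRNA) genes of KURAMOCHI (Ku) and COV362 (Cov), 2 human ovarian cancer cell lines, after 6 hr of the covalent kinase inhibitor THZ1. They are the rows of the expression tables whose name ends in -AS and a digit and whose mean level in the 2 DMSO libraries was above 1 FPKM in at least 1 of the lines. Of 23621 gene rows, 419 carry such a name and 125 met the threshold, 72 of them in both lines, 18 in Ku cells only and 35 in Cov cells only. FPKM are fragments per kilobase of transcript, relative to the reads of the library, here scaled by the authors to ERCC spike-in RNAs that were added per cell number.

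Each line was profiled in 6 libraries, 2 each of DMSO (the vehicle), THZ1 at 50 nM and THZ1 at 250 nM. Ku cells were grown in RPMI and Cov cells in DMEM, both with fetal bovine serum, and both are labelled as untransduced controls, so no group carried an introduced gene or guide. The study design calls the libraries biological duplicates, the p-values below measure only the spread between these duplicates, and an exact two-sided permutation test of 2 libraries against 2 cannot give a p below 0.33. The RNA was bulk and poly(A)-selected, so RNAs without a poly(A) tail were not measured, and fewer cells making an RNA cannot be told apart from less of it per cell. Epithelial keratins fitted the labelled tissue: KRT8 had DMSO means of 2432 (Ku) and 1133 FPKM (Cov), KRT18 of 2135 and 792, and the ovarian lineage factor PAX8 of 136 and 124. Of the other epithelial markers, WT1 was high in Ku cells only (56.8 and 0.653), whereas EPCAM (4.13 and 162), KRT7 (4.61 and 1355) and MUC16 (0.166 and 5.71) were higher in the Cov table. Markers of blood and endothelial cells were low, with PTPRC at 0.235 and 0.130, CD3E at 0.119 and 0.106 and PECAM1 at 0.156 and 0.338 FPKM, while CD68 lay at 2.31 and 4.12, VWF at 2.66 and 0.600, PDGFRB at 0.243 and 0.259, COL1A1 at 2.53 and 3.17 and COL1A2 at 0.127 and 42.2.

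An antisense lncRNA is transcribed from the DNA strand opposite to a named sense gene, usually a coding one. Some start head to head with the sense gene from a shared, CpG-rich promoter region from which RNA polymerase II departs in both directions, and others lie inside or across the far end of the sense gene. Most are made at low levels and many are unstable. THZ1 inhibits CDK7, which phosphorylates the polymerase's tail at initiation, and CDK12 and CDK13, which act during elongation and support full-length transcripts.

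Of the 125 antisense genes, 122 could be placed in the GENCODE annotation lifted to GRCh37, 99 by name and 23 through an older name, and 119 of these are typed there as lncRNA. FBXO22-AS1, HNRNPU-AS1 and PCNA-AS1 were not matched. In 120 cases the sense gene is a row of the tables as well, and 118 pairs could be placed on opposite strands. The 5′ ends lay within 1000 bases of each other in 42 pairs, here called a shared promoter region. Such pairs need not overlap, and BOLA3-AS1 and BOLA3 do not. Of the other pairs, 75 overlapped and 1 did not, and 7 genes were not placed against their sense gene. In 93 pairs exons overlapped, and since the strand setting of the quantification is not given in the sources used here, reads of such a pair may mix.

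The promoters of 6 antisense genes whose responses are described below are printed here, from 250 bases before to 50 bases after the annotated start, read from the GRCh37 genome on the gene's own strand, 5′ to 3′. They were picked after their values were seen. Genes that fell to a low level at 50 nM (BOLA3-AS1, MAFG-AS1) are set beside genes that fell further at 250 nM (THAP9-AS1, MAPKAPK5-AS1). TPT1-AS1 and SLC2A1-AS1 had more of their DMSO mean left at 250 nM than the antisense median. Capitals mark each match, on either strand, to 4 motifs, of which matches can overlap. The GC box was searched as GGGCGG, which reads CCGCCC on the other strand. The box named CCAAT was searched by these letters, which read ATTGG on the other strand. The TATA core was searched as TATAAA, and on the other strand as TTTATA. The NRF1 core was searched as CGCATGCG, which reads the same on both strands. BOLA3-AS1 lies at chr2:74374884-74375183 (+), MAFG-AS1 at chr17:79885455-79885754 (+), THAP9-AS1 at chr4:83822064-83822363 (-), MAPKAPK5-AS1 at chr12:112280657-112280956 (-), TPT1-AS1 at chr13:45915230-45915529 (+) and SLC2A1-AS1 at chr1:43424470-43424769 (+).
BOLA3-AS1: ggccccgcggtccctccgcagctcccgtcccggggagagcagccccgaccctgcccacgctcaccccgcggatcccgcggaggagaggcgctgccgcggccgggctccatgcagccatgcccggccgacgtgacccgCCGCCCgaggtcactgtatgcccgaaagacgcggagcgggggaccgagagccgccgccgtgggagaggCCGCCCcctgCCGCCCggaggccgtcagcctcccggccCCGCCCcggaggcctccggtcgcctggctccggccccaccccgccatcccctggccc
MAFG-AS1: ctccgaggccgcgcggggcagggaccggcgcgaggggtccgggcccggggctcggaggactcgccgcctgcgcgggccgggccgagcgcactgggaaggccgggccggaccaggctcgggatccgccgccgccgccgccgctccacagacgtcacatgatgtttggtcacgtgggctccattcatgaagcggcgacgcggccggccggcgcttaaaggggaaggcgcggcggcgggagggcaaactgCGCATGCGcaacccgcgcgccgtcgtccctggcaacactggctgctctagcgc
THAP9-AS1: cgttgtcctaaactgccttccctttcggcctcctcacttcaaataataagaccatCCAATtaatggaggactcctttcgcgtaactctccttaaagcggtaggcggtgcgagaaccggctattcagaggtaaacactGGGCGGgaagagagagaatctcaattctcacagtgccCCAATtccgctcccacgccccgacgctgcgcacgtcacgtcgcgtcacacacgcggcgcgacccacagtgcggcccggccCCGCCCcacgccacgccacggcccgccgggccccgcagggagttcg
MAPKAPK5-AS1: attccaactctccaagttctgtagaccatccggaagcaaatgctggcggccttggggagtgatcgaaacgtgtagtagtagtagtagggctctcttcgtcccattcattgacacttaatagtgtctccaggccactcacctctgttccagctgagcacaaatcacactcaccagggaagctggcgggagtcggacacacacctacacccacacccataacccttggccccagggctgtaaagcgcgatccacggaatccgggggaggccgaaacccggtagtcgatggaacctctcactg
TPT1-AS1: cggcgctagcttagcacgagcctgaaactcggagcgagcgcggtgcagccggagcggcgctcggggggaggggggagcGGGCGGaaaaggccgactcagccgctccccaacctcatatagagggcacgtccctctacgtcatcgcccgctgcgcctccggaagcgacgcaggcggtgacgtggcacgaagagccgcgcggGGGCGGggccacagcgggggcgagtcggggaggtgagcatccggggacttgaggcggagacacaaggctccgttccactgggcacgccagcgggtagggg
SLC2A1-AS1: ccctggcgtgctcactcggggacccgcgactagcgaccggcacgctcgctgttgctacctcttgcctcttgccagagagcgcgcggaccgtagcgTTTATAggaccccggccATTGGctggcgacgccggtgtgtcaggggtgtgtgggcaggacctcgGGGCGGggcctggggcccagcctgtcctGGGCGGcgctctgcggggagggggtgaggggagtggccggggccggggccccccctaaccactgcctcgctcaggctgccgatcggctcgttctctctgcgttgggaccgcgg

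The 5′ ends of TPT1-AS1 and TPT1 are 61 bases apart, those of MAFG-AS1 and MAFG 94, of BOLA3-AS1 and BOLA3 95, of SLC2A1-AS1 and SLC2A1 156, of THAP9-AS1 and THAP9 276 and of MAPKAPK5-AS1 and MAPKAPK5 889. Over all 122 placed antisense genes, a window held a median of 23 CpG, against 25 for the 120 sense genes and 9 for all 38878 coding and lncRNA genes of the annotation. A GC box was found in 71 antisense windows (58.2%), in 60.8% of sense windows and in 37.9% of all windows. The CCAAT box occurred in 27.0% of antisense, 30.8% of sense and 35.6% of all windows. The TATA core occurred in 9.02%, 6.67% and 13.3%, and the NRF1 core in 5.74% (7 windows), 4.17% and 1.74%. These are letter matches, and binding of a factor was not measured.

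The antisense genes were lowly expressed. Their median DMSO mean was 1.59 FPKM in Ku cells and 2.35 in Cov cells, against 12.5 and 14.7 for all rows above the threshold. Inside the threshold and close to it lay PCBP1-AS1 (larger DMSO mean 1.03 FPKM), and just outside it MLLT4-AS1 (0.930) and UNC5B-AS1 (0.920). The tables hold no zeros, and undetected rows share a floor value of 0.0783 to 0.119 FPKM depending on the library. Between 0 and 9 of the 125 genes sat at that floor in a library. Levels below are spike-in normalised FPKM, and fold changes are differences in mean log2(FPKM + 1), which understate the change of genes near or under 1 FPKM.

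C17orf76-AS1, a small nucleolar RNA host gene now named SNHG29, was by far the most abundant. It was at 488 and 439 FPKM in the Ku DMSO libraries, 411 and 382 at 50 nM and 350.4 and 312 at 250 nM, and in Cov cells at 1003 and 1071, 577 and 650.2, and 539.8 and 468. Both treated groups lay below DMSO without overlap in both lines, and at 250 nM 71.4% of the DMSO mean was left in Ku cells and 48.6% in Cov cells. FGD5-AS1, a lncRNA found in many tissues, came next in Cov cells and was the third in Ku cells after FBXO22-AS1. It was at 33.6 and 31.0 FPKM in Ku DMSO, 16.3 and 14.8 at 50 nM and 12.2 and 11.9 at 250 nM, and at 73.7 and 83.7, 40.4 and 45.9, and 29.8 and 28.5 in Cov cells. Its sense gene FGD5 was near the floor in all 12 libraries, between 0.0935 and 0.221 FPKM. The HOXD cluster antisense genes were higher in Ku than in Cov DMSO libraries, a difference between separately normalised tables that was not tested. HOXD-AS2 was at 28.0 and 23.6 FPKM in Ku and 8.71 and 9.50 in Cov DMSO, and HOXD-AS1, now named HAGLR, at 20.7 and 16.8 against 1.77 and 2.42. AFAP1-AS1 was at 54.6 and 58.3 FPKM in Cov DMSO and at 0.146 and 0.178 in Ku DMSO, close to the floor, and MAGI2-AS3 at 22.8 and 22.8 in Cov against 0.133 and 0.133 in Ku.

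**Figure D1:**
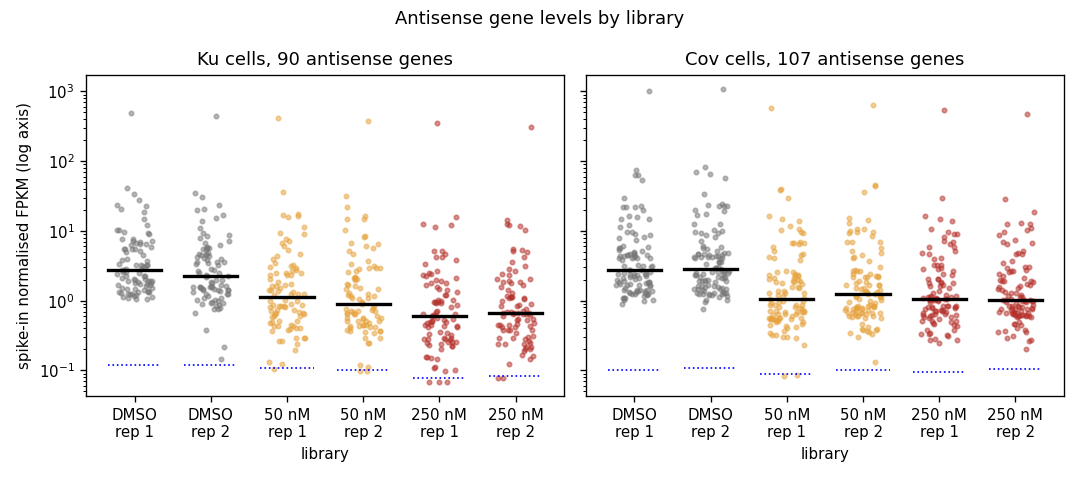
Spike-in normalised FPKM (log axis) of the antisense genes above the DMSO threshold of each line, 90 in Ku and 107 in Cov cells, in each library. Points are genes, black bars library medians and dotted lines the floor of the library. The bars fall from DMSO to 50 nM in both lines and again at 250 nM in Ku cells, while in Cov cells the bars of both doses lie close together.

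Which antisense genes fell with THZ1, and did they fall as often as other genes? On the spike-in scale, most had negative fold changes. A smaller share of them was called lower than of all genes, except at 50 nM in Ku cells, where the shares were close. None was called higher, against 0.0491% to 0.105% of all active genes in the comparisons with DMSO. At an unadjusted p under 0.05 none was higher either, against 0.182% to 1.46%. By the median level left on the linear scale, given below, antisense genes above the threshold lost more than all such genes, except at 250 nM in Cov cells. Calls were made by limma and needed both an adjusted p under 0.001 (Benjamini-Hochberg over 14251 active genes) and a change of more than 0.5 on the log2 scale. In Ku cells 15 of 125 antisense genes (12%) were called lower at 50 nM, against 11.3% of all active genes, and 56 (44.8%) at 250 nM, against 68.6%. In Cov cells 65 (52%) were called lower at 50 nM, against 70.5%, and 72 (57.6%) at 250 nM, against 84%. The median log2 fold changes were -0.55 and -0.83 in Ku cells, where all active genes had -0.40 and -1.11, and -0.68 and -0.73 in Cov cells, where they had -0.85 and -1.31. These medians depend on the pseudocount. With 0.1 FPKM added in place of 1 they were -0.99 and -1.40 in Ku cells, against -0.49 and -1.39 for all active genes, so that the medians at 250 nM lay close together, and -1.07 and -1.18 in Cov cells, against -1.002 and -1.55.

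The shares depend on which antisense genes are counted, since 35 of the 125 were not above 1 FPKM in Ku DMSO and 18 not in Cov DMSO. Of the 90 above it in Ku cells, 15 (16.7%) were called lower at 50 nM in that line and 54 (60%) at 250 nM, against 12.6% and 76.6% of all genes above it there. Of the 107 above it in Cov cells, 64 (59.8%) and 72 (67.3%) were called in that line, against 75.8% and 90.3%. Of the 72 above it in both lines, 13 (18.1%) and 48 (66.7%) were called in Ku cells, against 12.6% and 78.4% of all genes above it in both, and 46 (63.9%) and 52 (72.2%) in Cov cells, against 78.2% and 92.9%. At 250 nM in Ku cells the share of these 72 thus lay close to the 68.6% of all active genes and below that of genes held to the same threshold.

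The genes were chosen by DMSO levels, and a high DMSO value favours a fall in the same line, so these counts describe the members and test nothing about them. Counts in the line not used for choosing are free of this. Of the 107 antisense genes above 1 FPKM in Cov DMSO, 13 (12.1%) were called lower in Ku cells at 50 nM and 50 (46.7%) at 250 nM, where 11.5% and 71.4% of all genes above 1 FPKM in Cov DMSO were called. Of the 90 above 1 FPKM in Ku DMSO, 47 (52.2%) were called lower in Cov cells at 50 nM and 52 (57.8%) at 250 nM, where 74% and 87.9% of all such genes were called. The 43 LINC genes (long intergenic noncoding RNAs) that met the same threshold were also called less often than all genes at 250 nM, 22 of 43 (51.2%) in Ku and 30 (69.8%) in Cov cells. The antisense genes are lower in level than most genes, and the part of level in their share of calls was not tested.

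The Ku count at 50 nM rested on every library: leaving out any 1 of the 6 gave a count between 0 and 3 in place of 15, while the share of all active genes called fell from 11.3% to between 0.0421% and 0.919%. Without DMSO replicate 1, 250 nM replicate 1 or 250 nM replicate 2, 36, 27 and 30 antisense genes were called at 250 nM in Ku cells, and 51.2%, 42.7% and 44.3% of all active genes. Without DMSO replicate 1 or 2, 43 and 33 were called at 50 nM in Cov cells, and 48.4% and 30.3% of all active genes. The fall itself belongs to the spike-in scale. With each library scaled to the same median, which moved the median of all genes from -1.11 to 0.30 in Ku and from -1.31 to 0.33 in Cov cells at 250 nM, 3 antisense genes (2.4%) were called lower and 7 (5.6%) higher in Ku cells, against 11.7% and 27% of all active genes. In Cov cells 1 (0.8%) was called lower and 17 (13.6%) higher, against 11.3% and 26.6%.

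**Figure D2:**
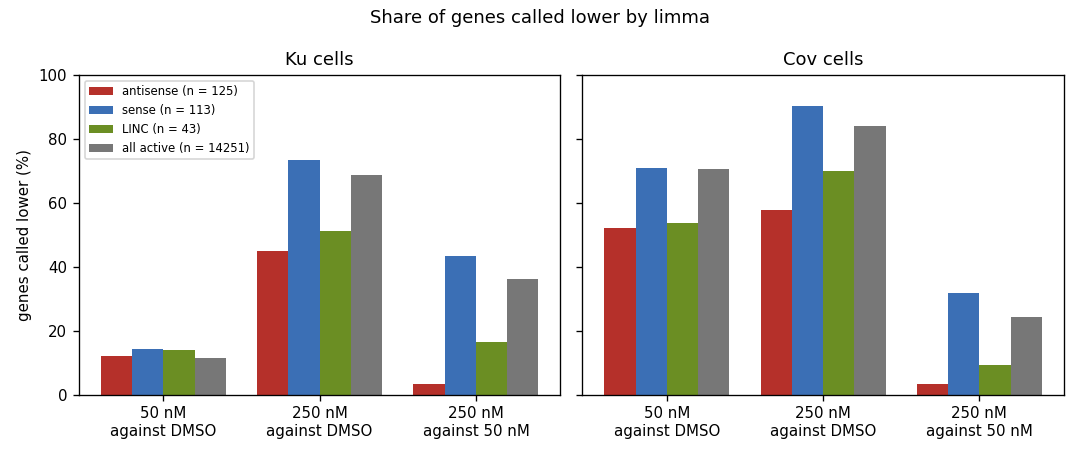
Percent of genes called lower by limma (adjusted p under 0.001, log2 fold change beyond 0.5) for the antisense genes, their sense genes, LINC genes and all active genes in each comparison, with the number of genes in the key. The antisense bars of the step from 50 nM to 250 nM stand at 3.2% in both lines, against 43.4% and 31.9% for the sense genes. Genes with little left at 50 nM could not be called in this step.

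Did the higher dose lower them further? Few antisense genes were called lower beyond 50 nM, a smaller share than of their sense genes or of all genes, although in Ku cells both 250 nM libraries lay below both 50 nM libraries for most antisense genes above the threshold. This comparison did not enter the choice of genes. A call needs a fall of more than 0.5 in log2(FPKM + 1), which a gene with little left at 50 nM cannot reach. At 50 nM the median of the 125 antisense genes was 0.664 and 0.561 FPKM in the Ku libraries and 0.822 and 0.971 in Cov. All active genes had medians of 7.55 and 6.90, and 5.62 and 6.28. The smaller share of calls thus does not show that less antisense RNA was lost, and the part of level was not tested. From 50 nM to 250 nM, limma called 4 of 125 antisense genes (3.2%) lower in Ku cells, where it called 36% of all active genes, and 4 (3.2%) in Cov cells, where it called 24.4%. None was called higher, as were 0.0421% and 0.0842% of all active genes, while at an unadjusted p under 0.05 0 antisense genes were higher in Ku and 11 (8.8%) in Cov cells, against 0.309% and 1.6% of all active genes. With 0.1 FPKM added 1 (0.8%) was called higher in Cov cells, against 0.112% of all active genes. Scaled to the same median, 0 were called lower and 4 (3.2%) higher in each line, where 6.59% of all active genes were lower and 6.62% higher in Ku and 5.05% and 3.22% in Cov cells. Median-of-ratios scaling gave 3 higher (2.4%) in Cov cells, against 0.498% of all active genes. The step had a median log2 fold change of -0.18 in Ku and -0.04 in Cov cells, and -0.62 and -0.41 for all active genes. With 0.1 FPKM added these were -0.39 and -0.10, and -0.79 and -0.51 for all active genes. Of 113 active sense genes, 49 (43.4%) were called lower in Ku and 36 (31.9%) in Cov cells, with medians of -0.77 and -0.52. LINC genes lay between these, with 7 of 43 (16.3%) and 4 (9.3%) called lower.

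On the linear scale, which carries no pseudocount, the 90 antisense genes above the threshold in Ku cells had a median of 43.3% of their DMSO mean left at 50 nM and 28.8% at 250 nM, while all genes above the threshold had 69.0% and 34.3%. The 107 in Cov cells had 44.0% and 38.9%, and all genes 48.3% and 31.5%. By these medians the antisense genes had less left than all genes, except at 250 nM in Cov cells. The choice by DMSO levels bears on both sets. In Cov cells the 250 nM mean exceeded the 50 nM mean for 43 antisense genes (40.2%), as for 9.03% of all genes. Both 250 nM libraries lay below both 50 nM libraries for 45 antisense genes (42.1%; 80.2% of all genes) and above them for 15 (14.0%; 3.73%), and the libraries overlapped for 47. In Ku cells they lay below for 60 (66.7%; 91.0% of all genes), above for 2 (2.22%; 0.968%) and overlapped for 28.

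The genes called lower in this step form a short list on the spike-in scale. None of them was called lower in it with libraries scaled to the same median, where the step turned to 0.14 for AFAP1-AS1 and 0.0039 for MAPKAPK5-AS1 in Cov cells and to 0.047 for FBXO22-AS1 in Ku cells. THAP9-AS1, which starts beside the transposase-derived gene THAP9, was at 23.7 and 21.0 FPKM in Ku DMSO, 16.8 and 14.7 at 50 nM and 5.09 and 5.46 at 250 nM, and at 63.4 and 70.4, 29.4 and 36.0, and 15.0 and 12.9 in Cov cells. Every dose was separate from the next, and the step from 50 nM to 250 nM was -1.41 ± 0.11 (SE; limma, adjusted p = 0.00016) in Ku and -1.17 ± 0.13 (adjusted p = 0.000296) in Cov cells. The level of THAP9 itself was lower, at 2.45 and 1.67, 0.767 and 0.780, and 0.154 and 0.273 FPKM in Ku cells.

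FBXO22-AS1, named for the gene of an F-box subunit of ubiquitin ligases, hardly moved at 50 nM in Ku cells. It was at 41.5 and 34.8 FPKM in Ku DMSO, 35.8 and 31.3 at 50 nM and 16.1 and 12.7 at 250 nM, and at 64.2 and 66.3, 38.2 and 44.8, and 16.3 and 18.7 in Cov cells. In Ku cells the DMSO and 50 nM libraries overlapped and the 250 nM libraries lay below both, with a step of -1.17 ± 0.14 (SE; limma, adjusted p = 0.000665), and of -1.20 ± 0.11 (adjusted p = 0.000152) in Cov cells.

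MAPKAPK5-AS1, head to head with the kinase gene MAPKAPK5, was at 5.08 and 4.03 FPKM in Ku DMSO, 2.33 and 2.15 at 50 nM and 0.447 and 0.666 at 250 nM, and at 12.2 and 12.7, 6.83 and 6.85, and 3.91 and 3.70 in Cov cells. Groups did not overlap at any dose, and the steps were -1.06 ± 0.14 (SE; limma, adjusted p = 0.000877) and -0.71 ± 0.09 (adjusted p = 0.000654). SH3RF3-AS1 passed in Ku cells only, at 0.991 and 1.09 FPKM at 50 nM and 0.145 and 0.268 at 250 nM (-0.76 ± 0.09, adjusted p = 0.000521), while its Cov libraries overlapped (0.652 and 1.25, then 0.704 and 0.634). AFAP1-AS1, a lncRNA studied for its high level in several carcinomas, passed in Cov cells, going from 13.8 and 15.3 to 9.01 and 8.85 FPKM (-0.65 ± 0.09, adjusted p = 0.000908). The difference between the lines was not tested. These counts of 4 rested on most of the libraries, since leaving out any 50 nM or 250 nM library of Ku cells left 0 or 1 call, and leaving out any Cov library except 50 nM replicate 1 left 1 or 2. Over all active genes the share called fell as well, to between 5.55% and 11.2% in these Ku fits and to between 10.7% and 18.7% in these Cov fits.

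**Figure D3:**
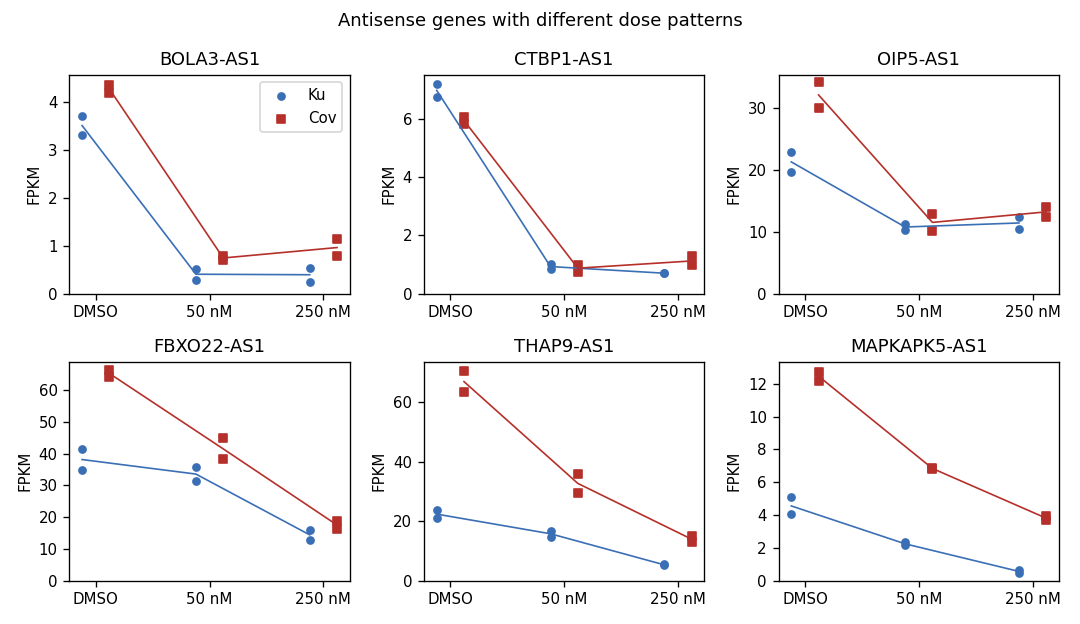
FPKM of 6 antisense genes in DMSO and at 50 nM and 250 nM THZ1 in Ku (circles) and Cov (squares) libraries, with lines through the means of 2 replicates. BOLA3-AS1, CTBP1-AS1 and OIP5-AS1 reach their low level at 50 nM, and FBXO22-AS1, THAP9-AS1 and MAPKAPK5-AS1 fall again at 250 nM.

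Which antisense genes fell most at the low dose? The 3 lowest log2 fold changes at 50 nM in Ku cells belonged to RHPN1-AS1, CTBP1-AS1 and BOLA3-AS1. The genes described here and next were picked for low fold changes in these comparisons or against their sense gene, so their values and p-values describe them and are not independent of the choice. CTBP1-AS1, now CTBP1-DT, faces the gene of a transcriptional co-repressor. It was at 7.18 and 6.76 FPKM in Ku DMSO, 1.03 and 0.834 at 50 nM and 0.705 and 0.702 at 250 nM, and at 6.07 and 5.82, 0.750 and 1.00, and 0.969 and 1.28 in Cov cells. In both lines the treated libraries lay far below DMSO, and the Cov libraries at 250 nM were no lower than at 50 nM. The fall at 50 nM was -2.05 ± 0.11 (SE; limma, adjusted p = 0.000223) in Ku and -1.89 ± 0.11 (adjusted p = 2.23e-05) in Cov cells. CTBP1 kept more of its level, going from 91.8 and 89.2 FPKM to 41.7 and 43.0 at 50 nM in Ku cells.

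BOLA3-AS1, now BOLA3-DT, shares its promoter region with BOLA3, which serves iron-sulfur cluster assembly in mitochondria. It was at 3.71 and 3.31 FPKM in Ku DMSO, 0.297 and 0.517 at 50 nM and 0.248 and 0.544 at 250 nM, and at 4.36 and 4.18, 0.698 and 0.795, and 0.786 and 1.14 in Cov cells. The fall at 50 nM was -1.68 ± 0.14 (SE; limma, adjusted p = 0.000445) in Ku and -1.59 ± 0.11 (adjusted p = 2.55e-05) in Cov cells. BOLA3, transcribed the other way, was at 147 and 131, 132 and 143, and 120.3 and 108 FPKM in Ku cells, where the DMSO and 50 nM libraries overlapped.

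RHPN1-AS1 went from 7.02 and 5.67 FPKM in Ku DMSO to 0.367 and 0.372 at 50 nM and 0.111 and 0.189 at 250 nM, and from 3.25 and 2.68 to 0.304 and 0.425 and to 0.282 and 0.366 in Cov cells. At 250 nM its fold changes were -2.67 ± 0.11 (SE; limma, adjusted p = 9.39e-06) and -1.58 ± 0.10 (adjusted p = 3.79e-06). MAFG-AS1, beside the gene of the small MAF transcription factor MAFG, was at 1.33 and 1.44 FPKM in Ku DMSO, 0.106 and 0.248 at 50 nM and 0.0967 and 0.236 at 250 nM, and at 4.59 and 4.62, 0.862 and 0.778, and 0.519 and 0.776 in Cov cells. Its fall at 50 nM was -1.02 ± 0.09 (adjusted p = 0.000505) and -1.62 ± 0.10 (adjusted p = 2.25e-05) by limma. These Ku calls at 50 nM were each lost when 50 nM or 250 nM libraries were left out, with adjusted p between 0.00129 and 0.00285.

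HNRNPU-AS1 and PITPNA-AS1 gave the other low values at 250 nM in Ku cells. HNRNPU-AS1, named for a nuclear RNA-binding scaffold protein, went from 7.28 and 5.62 FPKM to 1.87 and 1.19 and to 0.455 and 0.672, a log2 fold change of -2.25 ± 0.19 at 250 nM (SE; limma, adjusted p = 6.59e-05). HNRNPU was at 218 and 197 FPKM in DMSO and 251 and 229.9 at 50 nM, the treated libraries being the higher ones, and at 136 and 128 at 250 nM. PITPNA-AS1, opposite a phosphatidylinositol transfer protein gene and 135 bases from the start of INPP5K, was at 9.42 and 9.25 FPKM in Ku DMSO, at 1.34 and 3.72 with a wide spread at 50 nM and at 0.873 and 0.683 at 250 nM, where the fold change was -2.54 ± 0.32 (adjusted p = 0.000377).

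OIP5-AS1, a cytoplasmic lncRNA also called cyrano that is known for its conserved microRNA site, fell at 50 nM and was no lower at 250 nM. At 250 nM 53.7% of its DMSO mean was left in Ku cells, above the antisense median of 28.8%, and 41.2% in Cov cells, close to the median of 38.9%. It was at 22.9 and 19.8 FPKM in Ku DMSO, 11.3 and 10.2 at 50 nM and 12.5 and 10.4 at 250 nM, and at 30.1 and 34.2, 10.2 and 12.9, and 14.0 and 12.5 in Cov cells. The doses overlapped in both lines. At 250 nM the fold change was -0.84 ± 0.13 (SE; limma, adjusted p = 0.000958) in Ku and -1.22 ± 0.13 (adjusted p = 6.17e-05) in Cov cells, and it turned to 1.03 and 0.76 when libraries were scaled to the same median, so the fall of OIP5-AS1 is a fall on the spike-in scale. Its sense gene OIP5, with 759 shared exon bases, was at 19.8 and 18.8, 9.39 and 8.17, and 10.9 and 8.42 FPKM in Ku cells.

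Some antisense genes had more of their DMSO mean left at 250 nM than the antisense medians of 28.8% (Ku) and 38.9% (Cov). TPT1-AS1, head to head with the translationally controlled tumour protein gene TPT1, was at 9.10 and 8.89 FPKM in Ku DMSO, 6.13 and 5.79 at 50 nM and 4.21 and 5.38 at 250 nM, and at 16.0 and 19.9, 14.8 and 14.4, and 6.52 and 10.9 in Cov cells. At 250 nM 53.3% of its DMSO mean was left in Ku and 48.7% in Cov cells. Its log2 fold changes there were -0.79 and -0.99, against antisense medians of -0.98 and -0.90 for genes above the threshold of each line. On that scale it thus fell no less than the median in Cov cells. SLC2A1-AS1, now SLC2A1-DT, beside the glucose transporter gene SLC2A1, was at 1.33 and 1.02, 0.847 and 1.09, and 0.944 and 1.00 FPKM in Ku cells and at 1.25 and 1.49, 0.861 and 1.46, and 1.03 and 0.815 in Cov cells, so that DMSO and 50 nM libraries overlapped in both lines. SLC2A1 fell over the same doses, from 318 and 289 FPKM to 227 and 221 and to 97.1 and 93.7 in Ku cells. In Cov cells ASMTL-AS1 had the most positive fold change at 250 nM after PCNA-AS1, without passing the test, at 2.39 and 2.32 FPKM in DMSO, 2.002 and 1.69 at 50 nM and 2.45 and 3.03 at 250 nM.

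How did the antisense gene and its sense gene move against each other? The antisense share of a pair was lower at 50 nM than in DMSO in most Ku pairs, and it rose from 50 nM to 250 nM in most pairs of both lines. The pairs were chosen by DMSO levels above 1 FPKM of the same line, which are the baseline of the changes against DMSO and favour a fall of either gene, so those changes describe the pairs and test nothing, while the step from 50 nM to 250 nM does not use the DMSO values. The log2 ratio of antisense to sense was taken within a library with 0.1 FPKM added to both. Without the added constant the scaling of the library would cancel, and with it the ratio still depends on the scaling where levels are low. From DMSO to 50 nM its median changed by -0.50 over 77 Ku pairs with both genes above 1 FPKM in DMSO, and the antisense share fell in 46 pairs and rose in 12 without overlap of the libraries. In 91 Cov pairs the median changed by -0.18, with 40 down and 25 up. From 50 nM to 250 nM the ratio rose by a median of 0.50 in Ku pairs, up in 45 and down in 10, and by 0.60 in Cov pairs, up in 66 and down in 7. At 250 nM the ratio stood at a median of -0.0019 against DMSO in Ku pairs and 0.41 in Cov pairs. With 1 FPKM added in place of 0.1 the rise from 50 nM to 250 nM was 0.47 and 0.45, but the change at 50 nM in Cov pairs turned to 0.10 and that at 250 nM against DMSO in Ku pairs to 0.32, with 51 pairs up and 26 down.

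**Figure D4:**
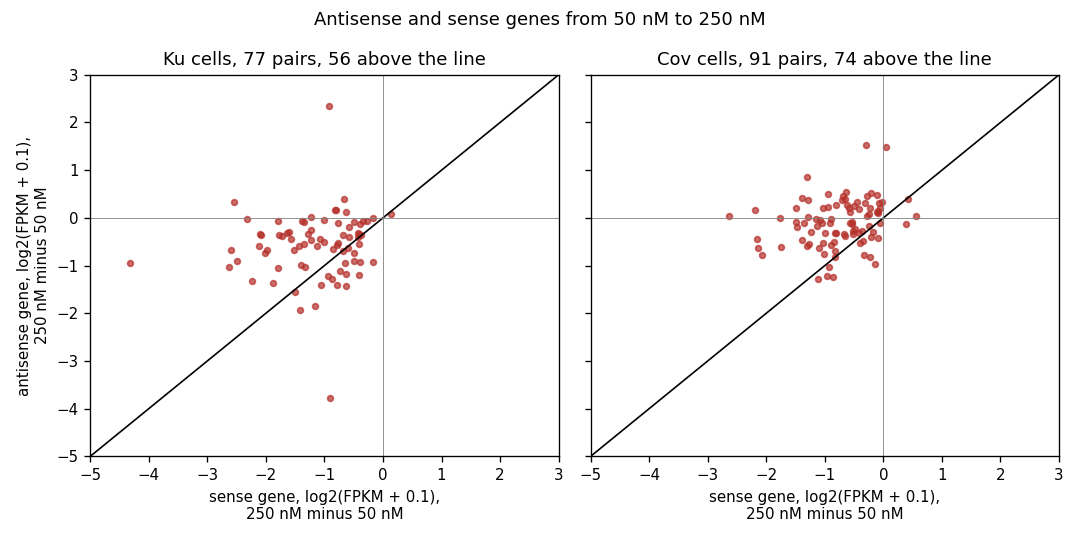
Change from 50 nM to 250 nM THZ1 in log2(FPKM + 0.1) of the sense gene (horizontal) and of its antisense gene (vertical), with the line of equal change. Antisense genes lay above the line in 56 of 77 Ku pairs and 74 of 91 Cov pairs. The same count over other pairs of genes was not made.

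In this step the antisense median was less negative than the sense median. This held in pairs with a shared promoter region and in other overlapping pairs. Fold changes in this paragraph are on the log2(FPKM + 1) scale, unlike the ratios above, which had 0.1 FPKM added. That scale understates falls of genes near or under 1 FPKM, where many antisense genes lay. Its part in the contrast of the medians was not tested. Among 29 Ku pairs with a shared promoter region, the antisense median was -0.27 and the sense median -1.19. Among 44 overlapping pairs outside this class they were -0.22 and -0.66. In Cov cells the medians were -0.09 and -0.56 over 38 pairs and -0.02 and -0.52 over 51 pairs. Across pairs, the fold changes of the antisense and the sense gene had a Spearman correlation of 0.12 to 0.25 in the 4 sets, and of -0.19 to 0.14 for the comparisons with DMSO, where both genes of a pair share libraries and, in many cases, exons.

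WAC-AS1 shows the sense gene falling further. It was at 18.5 and 15.4 FPKM in Ku DMSO, 9.23 and 8.31 at 50 nM and 4.19 and 4.26 at 250 nM, while WAC, which promotes histone H2B ubiquitination, went from 71.7 and 59.9 to 45.6 and 41.5 and to 6.49 and 7.32. MEIS1-AS3 was at 1.997 and 1.49 FPKM in Ku DMSO, 0.516 and 0.481 at 50 nM and 0.632 and 0.678 at 250 nM, with the 250 nM libraries above those of 50 nM. The homeobox gene MEIS1 meanwhile went from 25.03 and 22.6 to 9.50 and 8.34 and to 1.34 and 1.56. ZNF503-AS2 fell from 3.37 and 2.83 to 0.714 and 0.558 and to 0.202 and 0.375 FPKM in Ku cells, where the zinc finger gene ZNF503 was at 31.9 and 30.8, 16.7 and 18.2, and 0.744 and 0.808.

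The pairs with the most positive antisense-minus-sense differences at 250 nM also included THAP7-AS1 and FLI1-AS1 in Ku and CYP1B1-AS1, MEIS1-AS3, MAP3K14-AS1 and PCNA-AS1 in Cov cells. All but MAP3K14-AS1 were under 1 FPKM in DMSO of that line, where the scale leaves little room for a fall. MAP3K14-AS1, opposite the gene of the NF-kappaB-inducing kinase, was at 1.03 and 1.46 FPKM in Cov DMSO, 0.294 and 0.602 at 50 nM and 0.383 and 0.621 at 250 nM, and MAP3K14 went from 17.1 and 18.1 to 3.70 and 3.66 and to 0.598 and 0.867. The doses overlapped for MAP3K14-AS1 and were separate for MAP3K14. PCNA-AS1, opposite the gene of the replication clamp, was not measured steadily. It was at 10.4 and 0.148 FPKM in Ku DMSO, 17.5 and 22.2 at 50 nM and 0.0691 and 12.2 at 250 nM, and near the floor in 5 Cov libraries but at 10.2 in the last. Replicates of a dose thus differed between the floor and over 10 FPKM, and no fold change of it passed the test. CERS6-AS1 was as uneven, at 1.94 and 0.220 FPKM in Ku DMSO, 0.123 and 0.114 at 50 nM and 2.46 and 0.384 at 250 nM.

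Of 27 antisense lncRNAs listed for being known from the cancer literature, 20 are rows and 15 were members. Of these 15, 3, 11 and 2 were called lower in Ku cells at 50 nM, at 250 nM and between the doses, and 12, 12 and 3 in Cov cells. Over all active genes these shares were 11.3%, 68.6% and 36% in Ku and 70.5%, 84% and 24.4% in Cov cells. TP73-AS1, opposite the p53 family gene TP73, was at 12.1 and 11.2 FPKM in Ku DMSO, 4.36 and 4.62 at 50 nM and 3.32 and 3.60 at 250 nM, and at 9.52 and 10.5, 3.86 and 4.15, and 4.14 and 4.71 in Cov cells, where the doses overlapped. EPB41L4A-AS1 was at 14.9 and 14.0, 7.29 and 6.77, and 5.24 and 5.08 FPKM in Ku and 14.7 and 17.2, 7.02 and 7.01, and 5.95 and 5.19 in Cov cells, lower at each dose. CDKN2B-AS1, also called ANRIL and located at the locus of the cell cycle inhibitors CDKN2A and CDKN2B, passed in no comparison, with 3.27 and 3.43, 2.69 and 1.22, and 1.21 and 1.13 FPKM in Ku cells.

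The calls of the 2 lines, whose tables were normalised separately, were set side by side. Of the 15 antisense genes called lower at 50 nM in Ku cells, 14 (93.3%) were also among the 65 called in Cov cells, of which they are 21.5%. Over all active genes 92.5% of the Ku calls at this dose were also called in Cov cells, and made up 14.8% of the Cov calls. At 250 nM 44 genes were called in both, 78.6% of the Ku and 61.1% of the Cov calls, against 94.2% and 76.9% over all active genes. Of the 72 genes above the threshold in both lines, 69 (95.8%) had both 250 nM libraries below both DMSO libraries in each line and 60 (83.3%) had both 50 nM libraries below them in each line, as had 98% and 77.7% of all 11874 genes above the threshold in both, counts on which the choice by DMSO bears.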

How the data were processed

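RNA-seq was taken from 12 libraries, 6 per line, whose labels give the line and the dose. Per the labels and the study's methods, the authors added ERCC spike-in RNAs to cell-count-normalized RNA, prepared stranded, poly(A)-selected libraries, aligned reads to hg19 with HISAT and computed FPKM with cuffquant and cuffnorm. The deposited FPKM values were normalized to the spike-ins by the authors, in 1 table per line. These are not counts, so the depth of the libraries is unknown, no count model was used and no counting interval is given. Strand settings are not given in the sources used here.

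Values were transformed as log2(FPKM + 1) for the 14251 genes above 1 FPKM in at least 1 library. Each line was fitted separately with limma 3.58.1 in R 4.3.3 (lmFit, eBayes with trend, 3 groups of 2), two-sided, with Benjamini-Hochberg adjustment over these genes. Calls needed an adjusted p under 0.001 together with a change of more than 0.5 on the log2 scale. On simulated data 102 of 107 genes changed by 1 and 93 of 93 changed by 2 on the log2 scale were called, and 0 of 14051 unchanged genes. The changed genes were drawn from those above 1 FPKM in Ku DMSO, most genes were left unchanged, and a simulated fall could pass below the floor. The rate of calls among genes as low as most antisense genes was not measured separately. Tables and figures were made with pandas and matplotlib in Python 3.11.15.

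The members, the list of known antisense lncRNAs and the marker lists were chosen with earlier results of these data known. Named were members of the known list, the 8 highest in DMSO of each line, the 3 lowest and 3 highest fold changes of each comparison, the 4 most negative and 4 most positive antisense-minus-sense differences of each line at 250 nM, the 2 genes on each side of the threshold, and the sense genes of these. TPT1-AS1, SLC2A1-AS1, SH3RF3-AS1, MAGI2-AS3 and the genes flagged at the end were named after their values were seen. Values of a few named items are not reported here. Positions come from GENCODE v44 lifted to GRCh37, and older names from RefSeq. The alternatives tried were another pseudocount, minimum, scaling, set of groups, replicate block, variance trend and threshold, each library left out, and members above the threshold in both lines.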

Additional observations from a re-analysis of the deposited data

Results flagged for a closer look

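Of the 72 antisense genes above the threshold in both lines, 3 (4.17%) moved in opposite directions from 50 nM to 250 nM with no overlap of the libraries, as did 193 (1.63%) of all 11874 genes above it in both lines. BAIAP2-AS1 had a log2 fold change of -0.28 in Ku and 0.30 in Cov cells, with 1.55 and 1.71 FPKM at 50 nM and 1.21 and 1.13 at 250 nM in Ku and 1.28 and 1.53, then 1.79 and 2.15 in Cov cells. GLIS3-AS1 had -0.49 in Ku and 0.26 in Cov cells. PCBP1-AS1, close to the DMSO threshold, had -0.21 in Ku and 0.17 in Cov cells. The difference between the lines was not tested, and 30 antisense genes (41.7%) were lower in both lines in this step and 0 higher in both, against 80.7% and 0.269% of all these genes.

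Among the 294 antisense rows below the DMSO threshold, 4 were above 1 FPKM and above both DMSO libraries in both libraries of a dose (1.36%), as were 40 of all 9724 rows below it (0.411%). FOXD2-AS1 had a mean of 1.71 FPKM at 50 nM in Cov cells, GAS5-AS1 1.22 at 250 nM in Cov cells and MED4-AS1 2.60 at 50 nM in Ku cells. UCKL1-AS1 was above DMSO at 50 nM in both lines, with 1.66 FPKM in Ku and 1.15 in Cov cells. Rows in this set had to be low in DMSO, so a higher treated value is favoured by the way they were set apart, and none of these rises was tested.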

How the results depend on the processing

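Scaling decided the counts of antisense genes called lower. In the order 50 nM, 250 nM and 250 nM against 50 nM, scaling to the same median gave 2, 3 and 0 in Ku and 0, 1 and 0 in Cov cells, and median-of-ratios scaling gave 3, 8 and 1 in Ku and 1, 2 and 0 in Cov cells. In the same order, the shares of all active genes were 0.589%, 11.7% and 6.59% in Ku and 0.154%, 11.3% and 5.05% in Cov cells under the first scaling, and 2.72%, 19% and 11.1%, and 0.772%, 18.9% and 7.92% under the other. Under the same median the step from 50 nM to 250 nM turned to 0.14 for AFAP1-AS1 in Cov, 0.047 for FBXO22-AS1 in Ku and 0.0039 for MAPKAPK5-AS1 in Cov cells. OIP5-AS1 at 250 nM turned to 1.03 in Ku and 0.76 in Cov cells under the same median and to 0.53 and 0.32 under median-of-ratios scaling. The Ku count at 50 nM was 0 with no minimum FPKM, 0 with only the 2 groups fitted and 62 at an adjusted p under 0.05, against 0.0127%, 0.0632% and 40.2% of all genes fitted. With no minimum, which adds undetected rows to all genes, the order of the shares turned in Cov cells, with 41.6% of antisense genes and 35.1% of all genes called lower at 50 nM and 49.6% and 47.8% at 250 nM. The Ku count of the step was 1 with no minimum, 2 without the variance trend and 17 at 0.05 (8.05%, 31.3% and 58.2% of all genes fitted), and the Cov count of the step 2 with no minimum, 2 with only the 2 groups and 12 at 0.05 (9%, 17% and 41.5%). Same-numbered replicates did not deviate together (correlations from -0.070 to 0.028 over active genes and from -0.51 to 0.21 over the antisense genes, in neither case above 0.1 for every pair), so they were not treated as pairs. With the replicate block the Ku count at 50 nM was 7 and the Cov count of the step 1 (6.94% and 7.93% of all genes), and the other counts stayed within 1.5 times. With 1 library left out, the counts ranged from 0 to 3 at 50 nM, 27 to 57 at 250 nM and 0 to 3 in the step in Ku cells, and from 33 to 78, 52 to 83 and 1 to 3 in Cov cells, the lone sample being assumed to vary like the other groups. With 1 FPKM added, the antisense to sense ratio changed by -0.27, 0.32 and 0.47 in Ku and 0.10, 0.53 and 0.45 in Cov pairs, a change of sign for Ku at 250 nM and Cov at 50 nM, and the cause was not tested. A pseudocount of 0.1 (which moved the medians), a minimum on condition means and members above the threshold in both lines left every count within 1.5 times, but the last of these holds 72 genes in place of 125, so its shares were higher, 66.7% in place of 44.8% at 250 nM in Ku cells. Depth is unknown, and values near the floor limit the folds of many antisense genes.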
